A study of Mus musculus with 2 samples.

Results

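The miR-99, miR-100 and miR-125 genes are the hairpin genes that lie beside let-7 genes at 3 places in the mouse genome. They were described here in hippocampus as 6 genes, Mir99a, Mir99b, Mir100, Mir125a, Mir125b-1 and Mir125b-2, out of 2202 miRNA genes listed in the deposited count tables. Members were taken by gene symbol, through the Ensembl identifiers of the tables and GENCODE annotation M21, a rule that uses no measured value, although the genes were proposed with earlier results of these data known. The tissue came from male B6CASTF1/J mice, an F1 hybrid strain, aged 2 months. Both libraries belong to a single group, biological replicates 1 and 2, with no second genotype, treatment or age. In the labels each library has its own biosample, while the donor entry is the same for both, and the spread between the libraries may not cover the spread between animals.

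A microRNA (miRNA) is a short RNA cut from a hairpin precursor, and its seed, bases 2 to 8, sets most of its pairing with target mRNAs. miR-125 is the mammalian relative of lin-4 of the nematode, which together with let-7 times developmental transitions, and the genes of both families sit on shared primary transcripts at several loci. miR-99 and miR-100 are known to act on Mtor and the insulin-like growth factor receptor gene Igf1r, and miR-125b on Lin28a, Trp53 and, in hippocampal neurons, the NMDA receptor subunit gene Grin2a. The protein LIN28 blocks the maturation of let-7 but not of its hairpin neighbours.

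The mature 5p arms are shown because they decide which genes act through 1 seed and which reads could be assigned to 1 gene. They come from RefSeq (GRCm38.p6, the build of the deposited mm10 tables), where all 6 members were matched, and the seed is in capitals.
miR-99a-5p: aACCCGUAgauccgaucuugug
miR-100-5p: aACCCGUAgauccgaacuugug
miR-99b-5p: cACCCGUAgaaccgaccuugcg
miR-125a-5p: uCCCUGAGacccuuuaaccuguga
miR-125b-5p: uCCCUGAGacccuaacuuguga

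The 3 arms of miR-99 and miR-100 share the seed ACCCGUA, and those of the miR-125 family share CCCUGAG. With positions counted from the 5′ end and the base of miR-99a-5p given first, miR-99a-5p and miR-100-5p, both of 22 nt, differ only by U16A. miR-99a-5p and miR-99b-5p differ by A1C, U11A, U16C and U21C. miR-125a-5p and miR-125b-5p share their first 13 bases and then part. Among all 2202 listed hairpins, the longest exact run that the miR-99a-5p arm shares with another gene is 15 nt, with Mir100, and the longest run of the miR-99b-5p arm is 10 nt. That of miR-125a-5p is 13 nt, with both Mir125b genes and Mir6367.

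miR-125b-5p is made from both Mir125b genes, and the whole 22 nt arm lies in each hairpin. A 5p read that stays within the arm is therefore the same for both genes. Reads that mapped to several places were in no gene's count. They made up 42.6% of the reads in replicate 1 and 46.0% in replicate 2, and how many of them were miR-125b-5p was not measured. The counts of Mir125b-1 and Mir125b-2 below are those of placed reads. The other 4 members, Mir99a, Mir99b, Mir100 and Mir125a, carry no arm that is repeated whole in another listed hairpin. The hairpins were compared with each other and not with the whole genome.

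The clusters differ in how tightly they are packed (mm10 coordinates, all on the plus strand). On chromosome 17, Mir99b (ENSMUSG00000065396.1, 17830188 to 17830257), Mirlet7e and Mir125a (ENSMUSG00000065479.2, 17830812 to 17830879) lie within 692 nt in the protein-coding gene Spaca6, Mir99b in an intron and Mir125a partly in an exon. On chromosome 16, Mir99a (ENSMUSG00000065530.1, 77598936 to 77599000) lies 656 nt before Mirlet7c-1. Mir125b-2 (ENSMUSG00000065472.1) follows much further on, all in an intron of the noncoding gene Mir99ahg. On chromosome 9, Mir100 (ENSMUSG00000093011.1, 41531425 to 41531504) lies 5211 nt before Mirlet7a-2, and Mir125b-1 (ENSMUSG00000093354.1, 41581926 to 41582002) 45114 nt after it, in introns of the noncoding genes 3110039I08Rik and Gm49317. Mir125b-1 also lies within an exon of the sense-intronic gene Gm28119, and Mir125b-2 partly in an exon of C130023A14Rik. In each cluster the order along the strand is a gene of miR-99 or miR-100, a let-7 gene and a miR-125 gene.

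**Figure D1:**
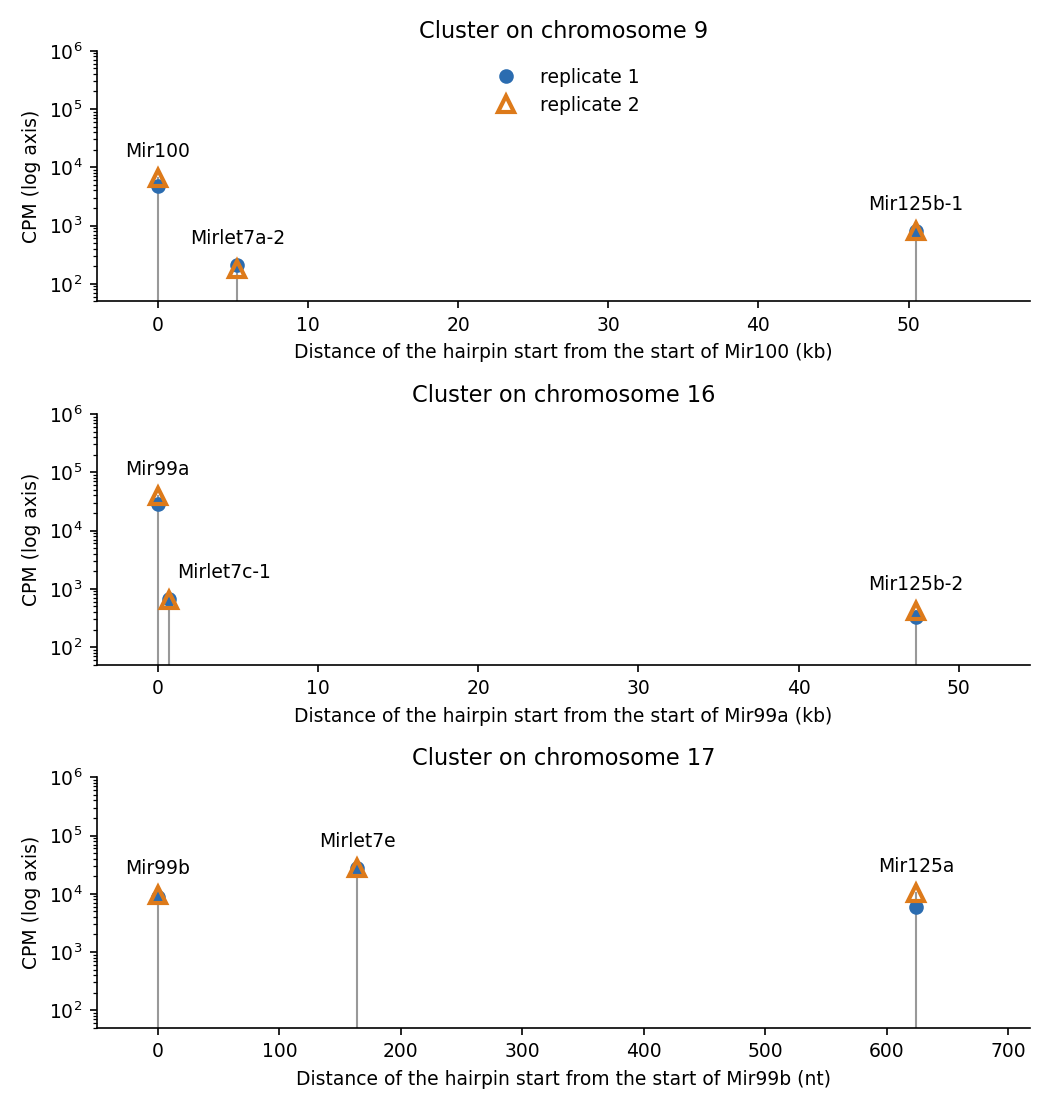
CPM on a log axis of the 3 genes of each let-7 cluster against the distance of the hairpin start from the first hairpin (kb for chromosomes 9 and 16, nt for chromosome 17), in replicate 1 (filled blue circles) and replicate 2 (open orange triangles), with grey stems as a guide. The let-7 gene is the lowest of its cluster on chromosome 9, lies between its neighbours on chromosome 16 and is the highest on chromosome 17.

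Values are counts on the strand of the gene, divided by the library's total over all miRNA genes and given per 1000000 of that total (counts per 1000000, CPM). They were not divided by hairpin length, since each read stands for a whole short RNA, and both arms of a hairpin are summed. The totals were 2322520 counts in replicate 1 and 3414105 in replicate 2, so a count of 0 allows up to 1.29 and 0.879 CPM (3 counts). Counting intervals are Wilson 95% intervals, and they cover counting error only, not the spread between libraries. They may be too narrow even for counting error, because amplified reads without molecular identifiers are not independent molecules. The miRNA genes that mark hippocampal cells were present: the 9 listed neuronal genes, 7 of them detected, came to 32939 and 47570 CPM in replicates 1 and 2. The endothelial gene was at 14889 and 12474 CPM, the mural list at 6456 and 6935 CPM, and the oligodendrocyte list at 4367 and 2683 CPM. The erythrocyte list was at 1922 and 1149 CPM and the microglia and leukocyte list at 676 and 1100 CPM. The liver gene Mir122, which should be near absent from brain, was at 52.1 and 40.7 CPM.

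Together the 6 members held 4.88% of miRNA-gene counts in replicate 1 (4.85 to 4.91) and 6.63% in replicate 2 (6.61 to 6.66), a mean of 5.76% ± 1.24 (SD, n = 2). All 6 were detected, meaning 2 CPM or more in both libraries, as were 401 of the 2202 genes. In these placed reads the miR-99 and miR-100 genes outweighed the miR-125 genes. The sum of Mir99a, Mir99b and Mir100 was 41802 and 54695 CPM in replicates 1 and 2, with a mean of 48248 ± 9116 CPM (SD, n = 2). The miR-125 sum, which lacks any multimapping reads of miR-125b-5p, was 6980 and 11624 CPM, with a mean of 9302 ± 3284 CPM (SD, n = 2).

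Mir99a, of the cluster on chromosome 16, was the leading member. Its level was 28187 CPM (27975 to 28401) in replicate 1 and 38611 CPM (38407 to 38816) in replicate 2, the 8th highest of all listed genes in each library. It made up 67.4% of the sum of these 3 genes in replicate 1 and 70.6% in replicate 2. Mir99b, of the cluster on chromosome 17, had 8784 CPM (8664 to 8904) and 9581 CPM (9478 to 9685) and the 23rd rank in both libraries. The counting intervals of the libraries did not overlap for either gene. How many of all detected genes show such a gap was not counted, but 204 of 401 (50.9%) differed between the libraries by the exact binomial test below. Every listed gene with a mean CPM above that of Mir100 passed that test, so such a difference does not set Mir99a and Mir99b apart.

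Mir100, whose 5p arm differs from that of Mir99a by the single base given above, was at 4831 CPM (4743 to 4921) in replicate 1 and at 6502 CPM (6417 to 6588) in replicate 2. The ratio of Mir99a to Mir100 had overlapping intervals in the libraries, at 5.83 in replicate 1 (exact 95% counting interval 5.72 to 5.95) and 5.94 in replicate 2 (5.85 to 6.02). These genes lie on different chromosomes. By contrast the ratio of Mir99a to Mir99b was 3.21 in replicate 1 (3.16 to 3.26) and 4.03 in replicate 2 (3.98 to 4.08).

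By placed reads Mir125a was the leading miR-125 gene, and its level differed most between the libraries among the members. It stood at 5854 CPM (5757 to 5953) in replicate 1 and at 10403 CPM (10296 to 10511) in replicate 2, with a mean of 8128 ± 3216 CPM (SD, n = 2). It held the 33rd rank of all genes in replicate 1 and the 21st in replicate 2, and it formed 83.9% of the miR-125 sum in replicate 1 and 89.5% in replicate 2. Any multimapping reads of miR-125b-5p are missing from that sum, so these are shares of placed reads only.

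The Mir125b genes had low placed counts. Mir125b-1 was at 795 CPM (759 to 832) in replicate 1 and at 803 CPM (773 to 833) in replicate 2, and these intervals overlap. Mir125b-2 had 332 CPM (309 to 356) and 419 CPM (397 to 441), and its intervals do not, a gap to be read beside the same 50.9% of detected genes. Of the 141 detected genes at least as abundant as Mir125b-2, 65 (46.1%) were higher in replicate 2 by the exact binomial test below. Mir125b-1 exceeded Mir125b-2 by 2.40-fold in replicate 1 (2.20 to 2.61) and 1.92-fold in replicate 2 (1.80 to 2.05). Because of the shared arm shown above, these are not levels of miR-125b-5p, and the order of Mir125a over the Mir125b genes was read from placed reads only.

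By mean CPM the members ran from Mir99a at 33399 ± 7371, through Mir99b at 9182 ± 564, Mir125a at 8128 ± 3216, Mir100 at 5667 ± 1181 and Mir125b-1 at 799 ± 5.67, to Mir125b-2 at 375 ± 61.5 (SD, n = 2 for each). Neighbours in this order were taken to differ beyond the spread when their log2 ratio had 1 sign in both libraries and a mean above 2 SD. By that rule Mir99a stood above Mir99b, Mir100 above Mir125b-1, and Mir125b-1 above Mir125b-2. Mir99b and Mir125a did not differ beyond the spread, since Mir99b was higher in replicate 1 and Mir125a in replicate 2. Mir125a and Mir100 kept their order, at 1.21-fold and 1.60-fold, but the difference stayed within 2 SD.

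**Figure D2:**
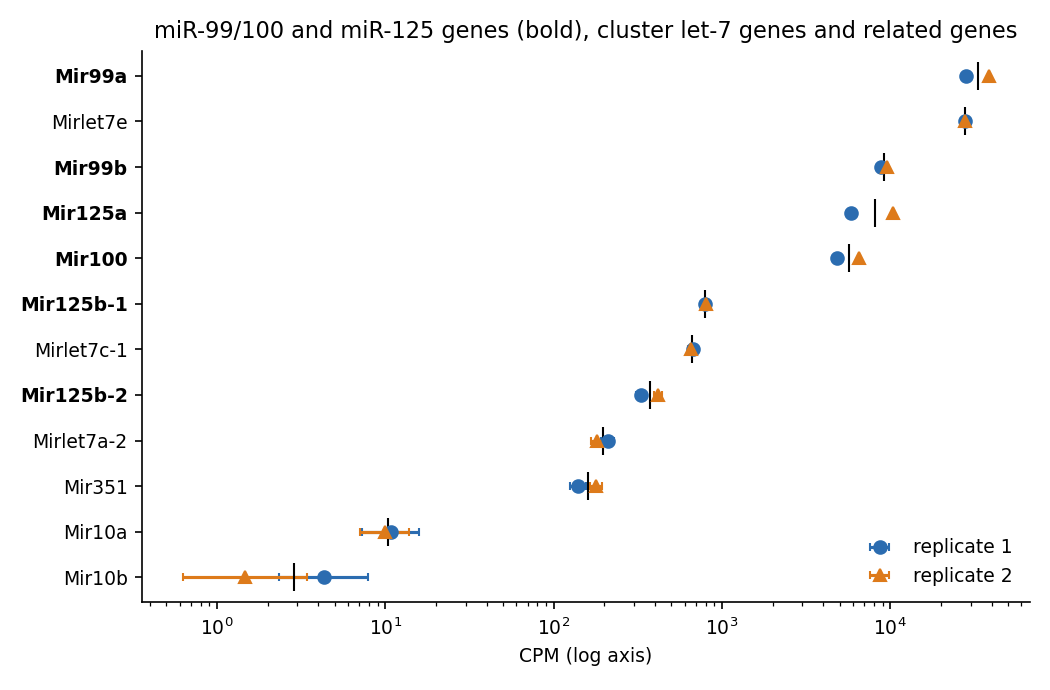
CPM on a log axis of the 6 members (bold), the let-7 gene of each cluster and 3 related genes, in replicate 1 (blue circles) and replicate 2 (orange triangles), with Wilson 95% counting intervals and the mean as a black tick. Mir99a is highest in replicate 2 at 38611 CPM, and the blue and orange points of Mir125a stand farther apart than those of any other member.

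The genes whose pair of values lay nearest to each member were found by the distance of log2(CPM + 1) over the 2 libraries, which is a likeness of level more than of pattern. Nearest to Mir99a was Mir744, at 37336 and 42051 CPM (distance 0.42). Nearest to Mir99b was Mir330, at 9523 and 9904 CPM (distance 0.13), and nearest to Mir100 was Mir30d, at 4787 and 5731 CPM (distance 0.18). Mir23a, at 8477 and 10697 CPM, was nearest to Mir125a, but at the largest distance of the 6, 0.54. Gm23450, at 754 and 799 CPM, was nearest to Mir125b-1 (distance 0.076), and Mir106b, at 347 and 424 CPM, to Mir125b-2 (distance 0.070).

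Other genes with the same or a related seed were low. Among the RefSeq mature arms, those of 6 genes carry the miR-125 seed CCCUGAG, the 3 members, Mir351, Mir6367 and Mir6394, and no gene besides Mir99a, Mir99b and Mir100 carries the seed ACCCGUA. Their arms are shown to set their remaining bases against those of miR-125a and miR-125b.
miR-351-5p: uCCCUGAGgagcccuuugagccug
miR-6367: uCCCUGAGacccugguucagga
miR-6394: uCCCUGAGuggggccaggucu

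Mir351, on the X chromosome, was at 140 CPM (126 to 156) in replicate 1 and 179 CPM (166 to 194) in replicate 2, below every member in both libraries. Mir6367 and Mir6394 had 0 counts in both libraries. The miR-10 genes, whose seed ACCCUGU resembles that of miR-99 and miR-100 and which lie in the Hox clusters, were also below every member in both libraries. Mir10a had 10.8 and 9.96 CPM, and Mir10b had 10 and 5 counts and was not detected by the rule of 2 CPM in both libraries.

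Within each cluster hairpins differed in placed reads beyond the spread, save Mir99b and Mir125a. That spread is between the libraries only, and it does not cover a bias between hairpins that both libraries share. The order of the miR-99 or miR-100, let-7 and miR-125 genes by placed reads was not the same at every locus. On chromosome 16, Mir99a exceeded Mir125b-2 by 85.0-fold in replicate 1 (79.2 to 91.4) and 92.2-fold in replicate 2 (87.6 to 97.3). It exceeded Mirlet7c-1 by 41.8-fold (39.8 to 44.04) and 59.3-fold (56.8 to 61.8). Mir125b-2 was below Mirlet7c-1, which had 673 and 651 CPM, with log2 ratios of -1.02 and -0.64.

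On chromosome 9, Mir100 exceeded Mir125b-1 by 6.08-fold in replicate 1 (5.79 to 6.39) and 8.10-fold in replicate 2 (7.78 to 8.43). It exceeded Mirlet7a-2, at 210 and 182 CPM, by 23.02-fold and 35.8-fold. Mir125b-1 exceeded the same let-7 gene by 3.79-fold and 4.42-fold. The 5p arms of let-7a and let-7c are, like miR-125b-5p, made at more than a single locus in the mouse, so the low counts of Mirlet7a-2 and Mirlet7c-1 are also those of placed reads.

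On chromosome 17, where the 3 hairpins lie closest together, the let-7 gene was the highest. Mirlet7e was at 27648 and 27624 CPM in replicates 1 and 2, above Mir99b by 3.15-fold and 2.88-fold and above Mir125a by 4.72-fold and 2.66-fold. The ratio of Mir99b to Mir125a changed side, at 1.50 in replicate 1 (1.47 to 1.53) and 0.921 in replicate 2 (0.907 to 0.935), a mean log2 ratio of 0.23 ± 0.50 (SD, n = 2). Of the 9 ratios within clusters this was the only one that failed the rule of 1 sign and 2 SD. No test was run on these ratios.

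**Figure D3:**
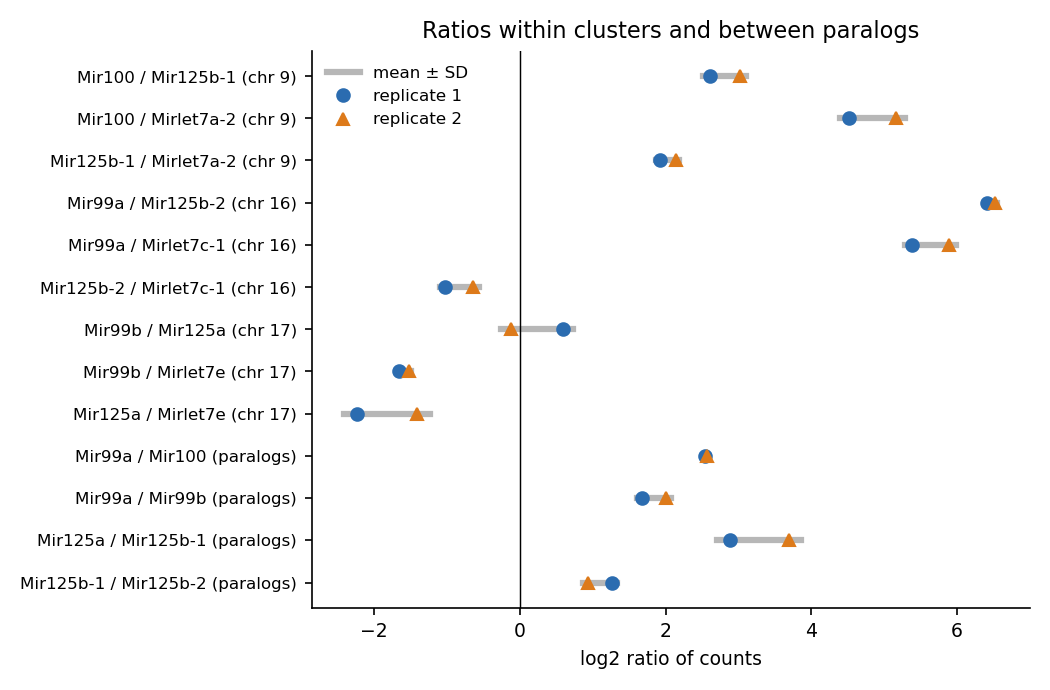
Log2 ratio of counts (0.5 added to each) within each cluster and between paralogs, in replicate 1 (blue circles) and replicate 2 (orange triangles), with the mean ± SD as a grey bar and 0 as the line of equal counts. Mir99b over Mir125a lies on both sides of 0, at 0.59 and -0.12, and Mir99a over Mir100 has its points nearly on top of each other at 2.54 and 2.57.

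The libraries were compared gene by gene with a two-sided exact binomial test on trimmed-mean (TMM) scaled library sizes, adjusted by Benjamini-Hochberg over the 401 detected genes. This test compares 2 libraries and measures counting error, not a condition. Of the 6 members 5 were higher in replicate 2 at the 0.05 threshold and none was lower. Over all detected genes 204 of 401 (50.9%) passed, 113 (28.2%) higher and 91 (22.7%) lower. Small differences pass more easily at high counts, and of the 141 detected genes at least as abundant as the lowest member, 65 (46.1%) were higher in replicate 2.

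Mir125a was 1.75-fold higher in replicate 2 (exact 95% interval 1.71 to 1.78). Mir99a was 1.35-fold higher (1.33 to 1.36) and Mir100 1.32-fold higher (1.29 to 1.35). Mir125b-2 was 1.24-fold higher (1.14 to 1.36, adjusted exact binomial p = 3.69e-06), and Mir99b 1.07-fold higher (1.05 to 1.09, adjusted exact binomial p = 2.94e-14). Mir125b-1 did not pass, with a ratio of 0.992 (0.935 to 1.05, adjusted exact binomial p = 0.875). The median log2 difference was 0.36 over the members and 0.03 over all detected genes, and the median coefficient of variation was 18.6% and 16.04%. The spread that edgeR estimated over all detected genes, its common biological coefficient of variation, came to 29.9%.

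These calls do not carry over once a spread between samples is allowed for. With an assumed coefficient of variation of 20%, the edgeR exact test called 0 of the 6 members after adjustment, against 18 of the 401 detected genes (4.49%). At an unadjusted p under 0.05 it called 0 members, against 45 of the 401 detected genes. The lowest adjusted p among the members was 0.449, for Mir125a.

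The let-7 genes, most of them outside the clusters of the members, leaned the other way. Of the 12 let-7 genes, all detected, 8 were lower in replicate 2 by the binomial test, 1 was higher and 3 did not pass, with a median log2 difference of -0.19. Over all detected genes 91 of 401 (22.7%) were lower, and the share of lower genes at the abundance of the let-7 genes was not counted. The leading genes of that list were Mirlet7g, Mirlet7b, Mirlet7i and Mirlet7d, and its summed share was 43.3% in replicate 1 and 37.03% in replicate 2. In the clusters themselves, Mirlet7e was lower by 1.02-fold (adjusted exact binomial p = 0.000811) and Mirlet7a-2 by 1.18-fold (adjusted exact binomial p = 0.0176), while Mirlet7c-1 did not pass (adjusted exact binomial p = 0.215). CPM are shares of 1 total, so the let-7 share and the other shares are tied together, and the part of this in the members' differences was not tested. With the let-7 list left out of the total, a choice made after the data were seen, the ratio of replicate 2 to replicate 1, given here with no test, was above 1 for 4 of the 6 members, at 1.23 for Mir99a, 1.21 for Mir100, 1.60 for Mir125a and 1.14 for Mir125b-2. It was below 1 for Mir99b, at 0.982, and for Mir125b-1, at 0.910, so the direction of Mir99b turns with this choice. Totals of all library reads, or without the 5 most abundant genes, were planned, and each left 5 members above 1. Mir99b was then at 1.03 and 1.02 in turn, and only Mir125b-1 was below 1, at 0.956 and 0.948. The marker lists did not move as a block. Of the 7 detected neuronal genes 3 were higher in replicate 2 by the binomial test, 3 were lower and 1 did not pass. The larger neuronal sum in replicate 2 came mostly from Mir128-1, at 4518 CPM in replicate 1 and 16906 CPM in the other library, while Mir138-1 was lower, at 4809 and 2633 CPM. Mir124a-1, of a family that defines neurons, had only 2.58 and 3.22 CPM of placed reads. Of the 3 oligodendrocyte genes 2 were lower, and the endothelial gene was lower. In the erythrocyte list Mir451a was lower, at 1807 and 1007 CPM, and Mir144 higher, at 94.7 and 121 CPM. Both mural genes were higher, as were 2 of the 3 detected microglia and leukocyte genes. The part of these markers in the members' differences was not tested, and in whole tissue a change in the number of cells cannot be told apart from a change in RNA per cell.

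**Figure D4:**
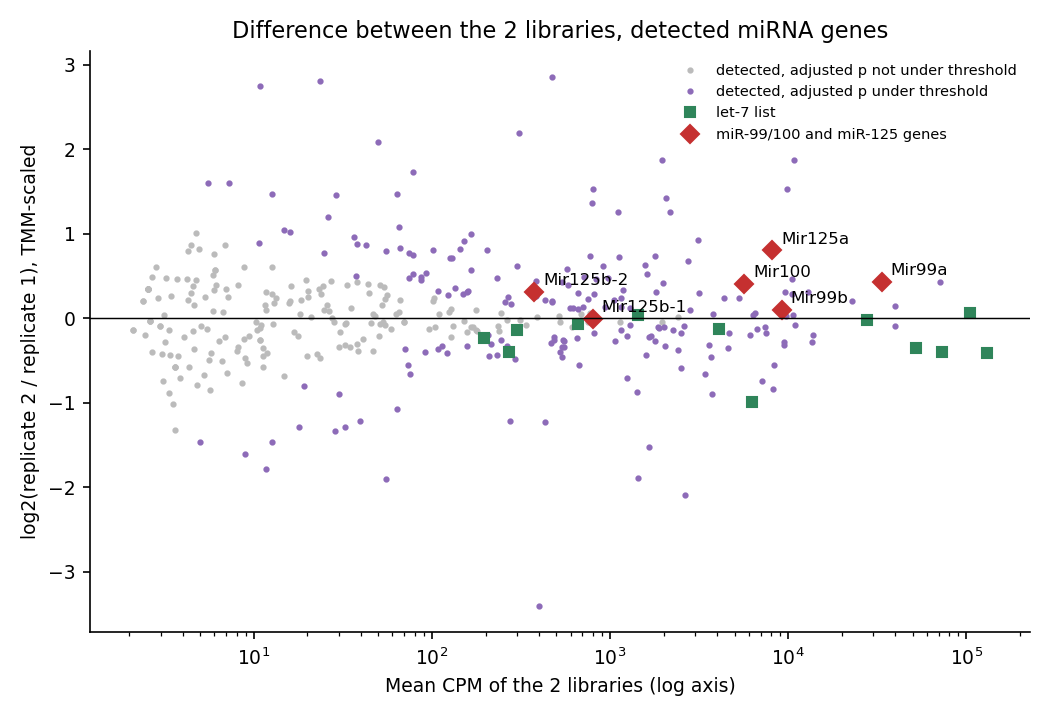
Log2 of replicate 2 over replicate 1 (TMM-scaled) against mean CPM on a log axis for the 401 detected miRNA genes, grey or purple by the exact binomial threshold, with the 12 let-7 genes as green squares and the 6 members as red diamonds. Mir125a (0.80), Mir99a (0.43) and Mir100 (0.40) lie above 0 and Mir125b-1 lies at -0.01, while most let-7 genes lie below 0.

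The strand columns gave a further check of the member counts. All 6 members had 0 counts on the opposite strand in both libraries, and each had the same number of reads in the unstranded column as on its own strand. Mir100 lies within an exon of the antisense noncoding gene Gm48742 and Mir99a opposite an intron of Gm11146, but neither of these is a listed miRNA gene. Mirlet7e, between Mir99b and Mir125a, was at 0 in the unstranded column, where another listed miRNA gene, Gm25927, overlaps it on the other strand.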

How the data were processed

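MicroRNA-seq was done on 2 hippocampus libraries of 1 group. The authors deposited raw counts of reads per miRNA gene, 1 table per library, on mm10 with GENCODE M21, per the file descriptions deposited with them, from fragments under 30 nt per the labels. The aligner and counter are not given in the sources used here. The column for the gene's own strand was used. Totals leave out the 4 rows without a gene: multimapping (42.6% and 46.0% of reads in replicates 1 and 2), unmapped (16.2% and 15.1%), no feature (5.16% and 4.70%) and ambiguous (0% in both). All 2202 identifiers matched M21.

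CPM, intervals and ratios (0.5 added to each count) were computed with Python 3.11.15 and scipy 1.17.1. Library sizes for the genome-wide exact binomial test were scaled by TMM factors (0.991 and 1.01) from edgeR 4.0.16 in R 4.3.3. DESeq2 1.42.0 size factors, plain totals, no filter, the unstranded column and an edgeR exact test with a dispersion of 0.04 were alternatives. The binomial procedure was tested on simulated counts with counting error only and known library totals. That check covers neither the TMM scaling nor a spread between samples. Mature sequences came from RefSeq and were compared with the M21 hairpins, which are not reported here. Named genes are the members, the let-7 genes of their clusters, Mir10a, Mir10b and Mir351, the 4 leading let-7 genes, the nearest gene to each member and antisense miRNA genes. Mir6367, Mir6394, the host or overlapping genes and single marker genes were named after their values were seen. Members, lists and tests were chosen with earlier results of these data known.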

Additional observations from a re-analysis of the deposited data

Results flagged for a closer look

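Data outside the member counts held signal well over the limit of 3 counts for a count of 0. The multimapping reads, which belong to no gene, numbered 2743569 in replicate 1 and 4604517 in replicate 2. The opposite-strand column of Gm25927, which overlaps Mirlet7e, held 64214 counts in replicate 1 and 94311 in replicate 2, the same numbers as Mirlet7e has on its own strand. No search for a sample that stands apart was made in a group of 2 libraries.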

How the results depend on the processing

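Scaling choices moved levels but few calls. Per 1000000 of all library reads, mean values were 11670 for Mir99a, 3218 for Mir99b, 1981 for Mir100, 2830 for Mir125a, 280.3 for Mir125b-1, 131 for Mir125b-2, 16869 for the sum of the miR-99 and miR-100 genes and 3242 for the miR-125 sum. Without the 5 most abundant genes in the total they were 58513, 16145, 9930, 14184, 1406, 658, 84588 and 16248 in the same order. The unstranded column, with its smaller total, gave 9914 for Mir99b and 862 for Mir125b-1. Those of the other 4 members and both sums moved by less than 1 SD, and Mir125b-1 turned higher in replicate 2 by 0.0092 on the log2 scale. It did so by 0.014 with plain totals and 0.013 with no filter, never near the threshold. Leaving out a replicate leaves the values of the other library, from 28187 to 38611 CPM for Mir99a, 41802 to 54695 for the sum of the miR-99 and miR-100 genes and 6980 to 11624 for the miR-125 sum, and log2 ratios of Mir99b over Mir125a from -0.12 to 0.59. Adding 1 in place of 0.5 moved no ratio by as much as 1 SD. Ratios to Mirlet7e could not be formed in the unstranded column, where it is at 0. The exact binomial test called 5 members with each scaling, filter and column tried, and from 184 to 210 genes. The edgeR exact test with a dispersion of 0.04 called 0 members and 18 genes, because it allows for spread between samples. The binomial test could not be run with 1 library. No paired analysis was possible because there is 1 group. Depth limits Mir10b and the genes at 0.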
